A study of Mus musculus with 16 samples.

Results

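The genes of the Hedgehog pathway were examined for binding by 3 transcription factors in the embryonic mouse retina. The set held 9 of the 21887 protein-coding genes annotated on the assembled chromosomes: Shh, Ptch1, Smo, Sufu, Gli1, Gli2, Gli3, Gpr161 and Hhip. They were chosen by name, and every deposited peak inside a gene body or within 50 kb of either end was taken. Binding had been profiled by CUT&RUN, in which an antibody directs a nuclease to its target protein and the DNA released around that protein is sequenced. Retinas from outbred CD-1 mouse embryos at embryonic day 16 were pooled, so each library is a mixture of animals and of retinal cell types, and about 300000 dissociated cells entered each assay. Antibodies to Foxn3 (4 libraries in 2 experiments), Foxn4 (2 libraries) and Rfx3 (2 libraries) were used, beside 8 immunoglobulin G control libraries. The controls were rabbit IgG for Foxn3 (4 libraries) and Rfx3 (2 libraries), and mouse IgG for Foxn4 (2 libraries). Cells were digested for 1 h with the Foxn3, Rfx3 and rabbit IgG antibodies and for about 12 h with the Foxn4 and mouse IgG antibodies, so Foxn4 cannot be told apart from its protocol in any comparison.

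Hedgehog signalling runs through the primary cilium. The receptor Ptch1 keeps the membrane protein Smo out of the cilium until a ligand such as Shh binds it; Smo then enters and relieves the block that Sufu and protein kinase A place on the Gli transcription factors. In the developing retina, Shh is made by ganglion cells and acts on progenitors, where Gli1, Ptch1 and Hhip are classical target genes. Foxn3 and Foxn4 are forkhead proteins and Rfx3 is a regulator of ciliary genes that binds the X-box motif.

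Each factor had a single deposited peak list, with 2794 peaks for Foxn3, 2956 for Foxn4 and 3981 for Rfx3. No list separates its libraries, so no value below has a spread between replicates and no test was made. Read depth is unknown from these files, IgG signal was not analysed here, and the labelled tissue could not be checked against marker expression. The score of a peak is the authors' own value; its scaling is not stated, so each score is given with the share of its own list that scored lower and is not compared in size between lists. Peaks of different factors count as shared when they have 1 bp or more in common.

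The sequence just upstream of Sufu is shown first, because this was the only one of the members' listed promoters that a peak overlapped. Sufu encodes the cytoplasmic inhibitor that holds Gli proteins in check. The 250 bases before its annotated start (chr19:46396646-46396895, plus strand, RefSeq GRCm38.p6, the same assembly as mm10) lay entirely inside a Foxn3 peak, and 223 of them lay inside an Rfx3 peak. Capitals mark GACGC, the short motif associated with Foxn proteins, which occurs at 2 places on the plus strand.
Sufu: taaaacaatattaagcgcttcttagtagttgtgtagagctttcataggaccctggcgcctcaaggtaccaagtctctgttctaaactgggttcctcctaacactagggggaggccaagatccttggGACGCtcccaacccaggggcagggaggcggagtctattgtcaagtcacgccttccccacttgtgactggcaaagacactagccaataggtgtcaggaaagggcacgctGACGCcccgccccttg
The matches begin 124 and 16 bases before the start.

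Listed promoters were available for 7 of the 9 members, as 8 windows of 300 bases, 250 before and 50 after a start. GACGC was searched on both strands and occurred in 5 of these windows, those of Ptch1, Smo, Sufu, Gli2 and Gli3. It occurred in 27.2% of all 32851 listed promoters, in 56.9% of the 25% of promoters with the highest GC content and in 6.15% of the 25% with the lowest. The Ptch1, Smo, Gli2 and Gli3 windows, at 76.3%, 67.7%, 67.3% and 71% GC, belong to that most GC-rich class, which starts at 61.7%, while Sufu had 56.3% GC. Hhip, at 73.7% GC, is in the same class and held no match. None of the 8 windows held the X-box, which 1.53% of all promoters hold, its arm GTTGCC (12.5% of all; a full X-box can contain it) or the Gli motif GACCACCCA (0.253% of all). The forkhead core TAAACA (13.4% of all) occurred in 1 window, at Gpr161, with 45.7% GC. This motif also varies with GC content: 26.5% of the 25% of promoters with the lowest GC hold it, and 3.17% of the 25% with the highest.

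Across the pathway, peaks lay at 5 of the 9 genes, Ptch1, Sufu, Gli1, Gpr161 and Hhip, and none lay in the windows of Shh, Smo, Gli2 and Gli3. The Foxn3 list had a peak at 3 members (Ptch1, Sufu and Gli1), against 27.4% of all protein-coding genes under the same rule. The Foxn4 list had one at 5 members, against 19.9%, and the Rfx3 list at 4 members (all of these but Hhip), against 33.0%. A peak of any list was found for 40.4% of all genes, and of every list for 12.5%. In that last class were 3 members, Ptch1, Sufu and Gli1. The count with a peak of any list, 5 of 9, is thus near the background. Of the 5 genes in the Foxn4 list, Gli1 and Gpr161 had their peak nearer to another gene. In total 25 peaks fell in these windows, 9 of Foxn3, 8 of Foxn4 and 8 of Rfx3, and 14 of them touched a member's body. Bodies touched by Foxn3 were those of Ptch1, Sufu and Gli1 (10.4% of all genes), by Foxn4 those of Ptch1, Sufu and Hhip (6.86%), and by Rfx3 those of Ptch1 and Sufu (13.6%). For the other 11, another protein-coding gene was nearer than the member.

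The 25 peaks formed 15 separate regions, of which 4 had a peak of all 3 factors, 2 had Foxn3 with Rfx3 and 9 had a single factor. Of the regions with all 3 factors, 2 lay at Ptch1, and the others were nearest to Trim8 and Mbd6. Shares over all merged regions are not given here, so shares per peak follow. Of the 9 Foxn3 peaks, 6 overlapped Rfx3 (81.1% in the whole Foxn3 list) and 4 overlapped Foxn4 (40.1% in the whole list); those 4 overlapped both (31.6%). The other 3 overlapped neither list (10.5% in the whole list); all of them lay in a member's body, 2 at Ptch1 and 1 at Gli1. Of the 8 Foxn4 peaks, 4 overlapped both other lists and 4 overlapped neither, against 29.9% and 56.0% of the whole Foxn4 list, where 38.0% meet Foxn3 and 36.0% meet Rfx3. Of the 8 Rfx3 peaks, 6 overlapped Foxn3 (56.4% in the whole Rfx3 list), 4 overlapped Foxn4 (26.5%), the same 4 overlapped both (22.1%) and 2 overlapped neither (39.2%).

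**Figure D1:**
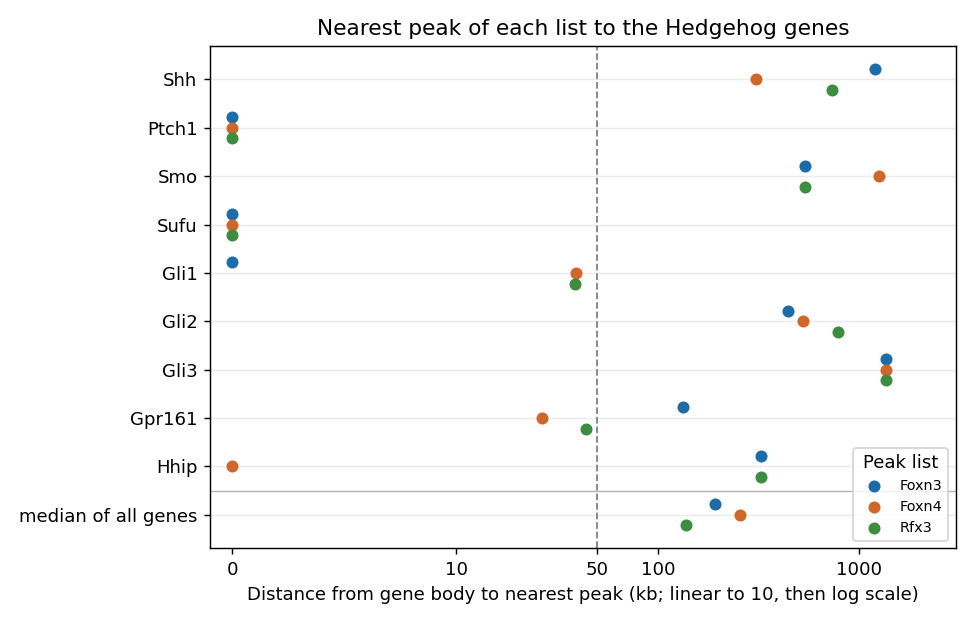
Distance from each gene body to the nearest peak of each list, in kb on an axis that is linear up to 10 kb and logarithmic beyond; points at 0 touch the body, the dashed line marks 50 kb, and the lowest row gives the median of all protein-coding genes. Ptch1 and Sufu have a peak of every list in the body, while all points of Shh, Smo, Gli2 and Gli3 lie beyond 300 kb.

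Ptch1, the receptor that represses Smo and is itself switched on by Hedgehog signalling, held 8 of the 25 peaks, all in the 5′ part of its body (chromosome 13, 63508328 to 63573460, minus strand). Its RefSeq models begin at more than 1 place: the listed start is at 63565735 and the body begins 7725 bp further upstream. All 8 peaks lay upstream of the listed start. The Foxn3 list had 4 peaks there, with midpoints 697, 2287, 3431 and 7748 bp upstream, and Foxn4 and Rfx3 had 2 each.

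The Ptch1 region nearest to the listed start carried all 3 factors. Its Foxn3 peak (63566204 to 63566661) scored 77.6, higher than 81.1% of its list. The Rfx3 peak (63566204 to 63566559) scored 96, higher than 59.2% of its list, and the Foxn4 peak (63566295 to 63566529) scored 9.78, higher than 75.5%. These were the highest-ranking Foxn3 and Foxn4 peaks among all the members' windows, and the 3 midpoints lay within 51 bp of each other. The Foxn4 peak was 235 bp wide and lay wholly inside the others. The region starts 219 bp beyond the listed promoter window, so its own sequence was not used here.

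The next Ptch1 region also carried all 3 factors, at lower rank. The Foxn3 peak (63567753 to 63568291) scored 20.6, above 28.8% of its list. The Rfx3 peak (63567759 to 63568256) scored 20, above 2.46%, and the Foxn4 peak (63567771 to 63568264) scored 6.22, above 29.3%. Their midpoints lay within 15 bp, and 486 of the region's 539 bp were common to the 3 peaks. Sharing was therefore close to complete in position at a site where the Rfx3 peak was among the weakest of its list.

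The remaining Ptch1 peaks were called for Foxn3 only. The first (63568904 to 63569429) scored 15.9, above 16.2% of the list. The second (63573364 to 63573603) scored 49.5, above 69.2%, and spanned the 5′ end of the gene body, with its midpoint 23 bp outside it. The 4 Foxn3 peaks thus ranged from near the listed start to the outermost annotated start, with 7051 bp between the outer midpoints. A run of 4 Foxn3 peaks within 10 kb occurred nowhere else in the list: 4 of 2794 peaks (0.143%) were in such a run, and these were the Ptch1 peaks. That span, and the counts of 4 and 2 peaks used here and below, were chosen after the values had been seen. The counts are those of Ptch1 itself, so the low shares partly follow from that choice. For Foxn4 2.88% of peaks were in a run of 4, and for Rfx3 0.201%. Bodies with 4 or more Foxn3 peaks belonged to 4 genes of 21887 (0.0183%): Ptch1, Tex14 with 6, Foxn3 itself with 5 and Msi2 with 4. At 65.1 kb, Ptch1 was the shortest of them; Tex14 spans 151 kb, Foxn3 374 kb and Msi2 379 kb. The bodies of the others also held several peaks of the Rfx3 and Foxn4 lists. Tex14 had 5 of Rfx3 and 8 of Foxn4, the Foxn3 gene 6 and 3, and Msi2 5 and 4. At least 2 Rfx3 peaks touched the body of 1.47% of genes, and at least 2 Foxn4 peaks that of 0.864%.

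**Figure D2:**
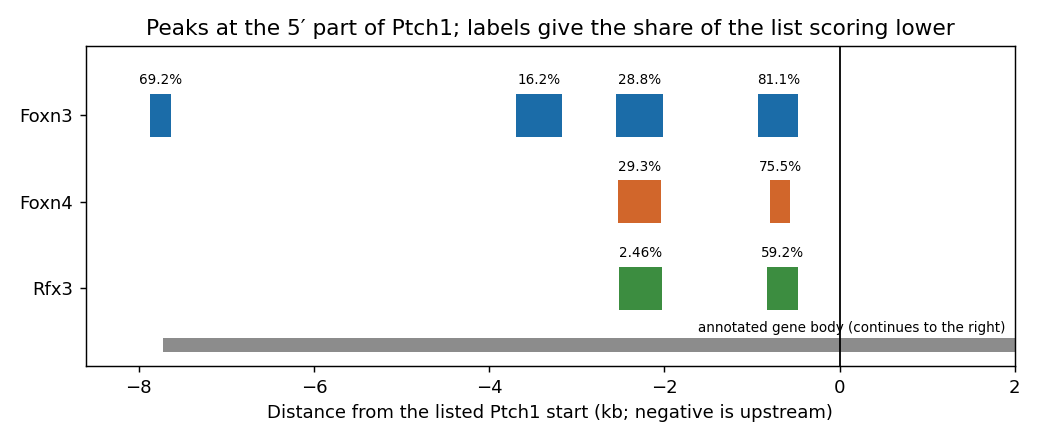
Peaks at the 5′ part of Ptch1, drawn to scale by distance in kb from the listed start (negative is upstream), one row per peak list; the label above each bar is the share of that list with a lower score, and the grey bar is the annotated gene body. The 2 regions nearest to the start carry all 3 factors, and the 2 farther upstream carry Foxn3 only.

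Sufu (chromosome 19, 46396896 to 46488804) had 9 peaks in its window, 3 of each factor. At its start, the Foxn3 peak (46396639 to 46397045) scored 16.8, above 19.0% of its list, with its midpoint 54 bp upstream. The Rfx3 peak (46396673 to 46397301) scored 69, above 46.4% of its list, with its midpoint 91 bp downstream. These are the peaks over the sequence printed above, and no Foxn4 peak overlapped them.

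The Foxn4 list had 2 peaks inside the Sufu body, 2104 bp (46398792 to 46399209) and 75973 bp (46472582 to 46473156) downstream of the start. Both scored 3.56, above 0.71% of the Foxn4 list, with 4.47% of the list at that same value, and neither overlapped another list. They were the lowest-ranking of the 25 peaks.

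A stronger pair lay just upstream of Sufu, inside the neighbouring gene Actr1a, which encodes a dynactin subunit. Its Rfx3 peak (46394989 to 46395469) scored 456, above 92.6% of its list and the highest rank of any peak in these windows. The Foxn3 peak there (46395154 to 46395374) scored 42.1, above 63.5% of its list. Their midpoints lay 512 and 477 bp from the listed Actr1a start and 1667 and 1632 bp from the Sufu start. On the far side of Sufu, a region with all 3 factors lay about 11 kb beyond the body, nearer to Trim8 (Foxn3 peak 46499776 to 46500018, above 35.8% of its list; Rfx3 peak 46499645 to 46500270, above 32.1%; Foxn4 peak 46499833 to 46500307, above 57.4%). Which gene any of these regions acts on was not determined.

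**Figure D3:**
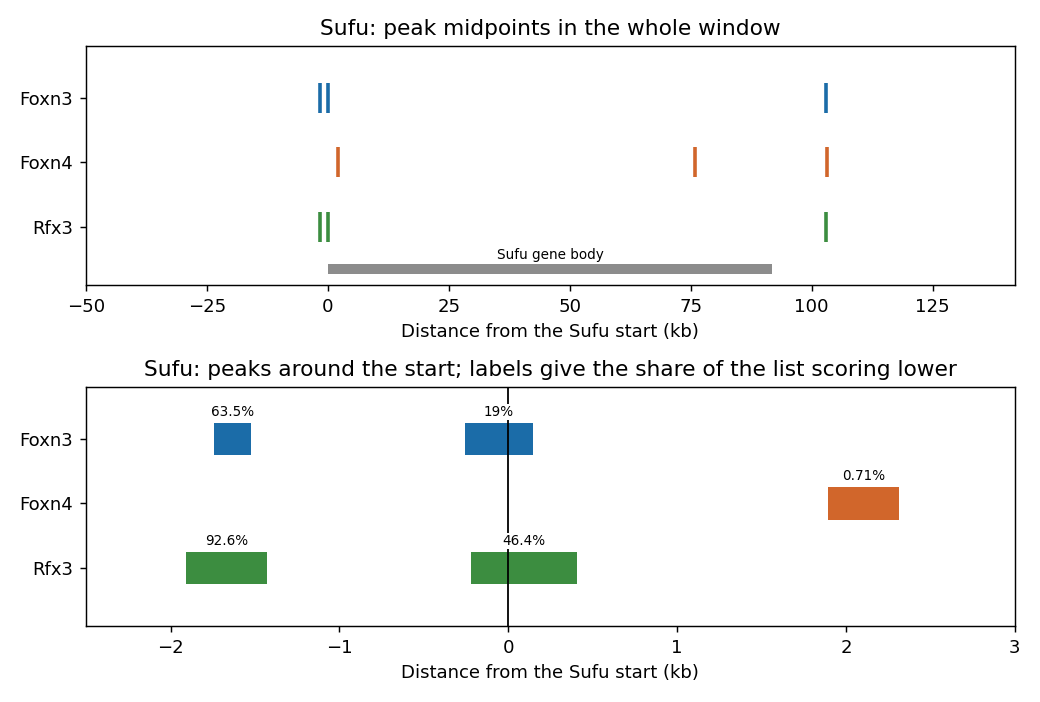
Upper panel, peak midpoints over the whole Sufu window by distance in kb from the start, with the gene body in grey; lower panel, the peaks around the start drawn to scale, each labelled with the share of its list scoring lower. Foxn3 and Rfx3 coincide at the start and in the stronger pair upstream, and the Foxn4 peaks in the body stand apart from both.

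Gli1, the Gli factor that serves as an amplifier and as the standard readout of the pathway, had a single peak in its body (chromosome 10, 127329882 to 127341579). It was a Foxn3 peak (127340283 to 127341064) that scored 38.3, above 59.6% of its list. Its midpoint lay 906 bp inside the higher-coordinate end of the gene. At 782 bp it was the widest of the 25 peaks, against a median width of 384 bp in the Foxn3 list, and it overlapped no Foxn4 or Rfx3 peak. The other peaks of the Gli1 window lay at other genes. A region with all 3 factors, 39220 to 39352 bp from Gli1 by midpoint, lay 131 to 263 bp from the listed start of Ddit3, a stress-response transcription factor, and within the body of Mbd6. There the Foxn3 peak ranked above 41.6% of its list, the Rfx3 peak above 37.7% and the Foxn4 peak above 29.3%. An Rfx3 peak above 3.62% of its list lay 117 bp from a listed start of R3hdm2.

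Hhip, a membrane protein that binds and sequesters Hedgehog ligands, had 1 peak (chromosome 8, gene body 79965850 to 80058060). This Foxn4 peak (80055821 to 80056252) lay 1972 bp downstream of the listed start, scored 6.22, above 29.3% of its list with 14.9% at the same value, and overlapped no other list. The nearest Foxn3 and Rfx3 peaks were 326 kb away.

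Gpr161, a ciliary receptor that raises cyclic AMP and so favours Gli repressor formation, had no peak in its body (chromosome 1, 165281184 to 165326747). An Rfx3 peak (165236771 to 165237232, above 11.2% of its list) lay 41 bp from a listed start of Tiprl, and a Foxn4 peak (165353348 to 165353662, above 5.18% of its list) lay inside Dcaf6. The nearest Foxn3 peak was 134 kb from the gene.

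The ligand, the transducer and 2 of the Gli factors had no peak of any list within 50 kb. For Shh the nearest peaks were 307 kb (Foxn4), 729 kb (Rfx3) and 1190 kb (Foxn3) away; 54.5%, 80.5% and 85.3% of all genes had a nearer one. The Foxn4 peak was nearest to En2 and the Rfx3 peak to Rnf32. For Smo, the membrane protein that carries the signal into the cilium, Foxn3 and Rfx3 peaks lay 537 kb away near Impdh1, and the nearest Foxn4 peak was 1260 kb away. For Gli2, the main activator, the distances were 445 kb (Foxn3), 522 kb (Foxn4) and 783 kb (Rfx3). Gli3, the main repressor, was the farthest: all 3 lists had their nearest peak 1350 kb away at Arid4b, and 87.3%, 89.0% and 89.7% of all genes had a nearer Foxn3, Foxn4 and Rfx3 peak. The medians over all genes were 192 kb for Foxn3, 257 kb for Foxn4 and 138 kb for Rfx3. The 4 bodies differ in length: Shh spans 10.3 kb, Smo 25.9 kb, Gli2 220 kb and Gli3 266 kb, longer than 36.9%, 61.6%, 96.0% and 96.9% of genes. Among genes of the same 25% length class, 44.2% (as for Shh), 42.3% (Smo) and 46.3% (Gli2 and Gli3) had a peak of some list under the same rule.

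Most peaks at the members were of middling or low rank. Of the Foxn3 peaks, 4 of 9 reached the median score of the list, with a median rank above 41.6% of the list (range 16.2% to 81.1%). Of the Foxn4 peaks 2 of 8 did, with a median of 29.3% (0.71% to 75.5%), and of the Rfx3 peaks 2 of 8, with a median of 34.9% (2.46% to 92.6%).

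**Figure D4:**
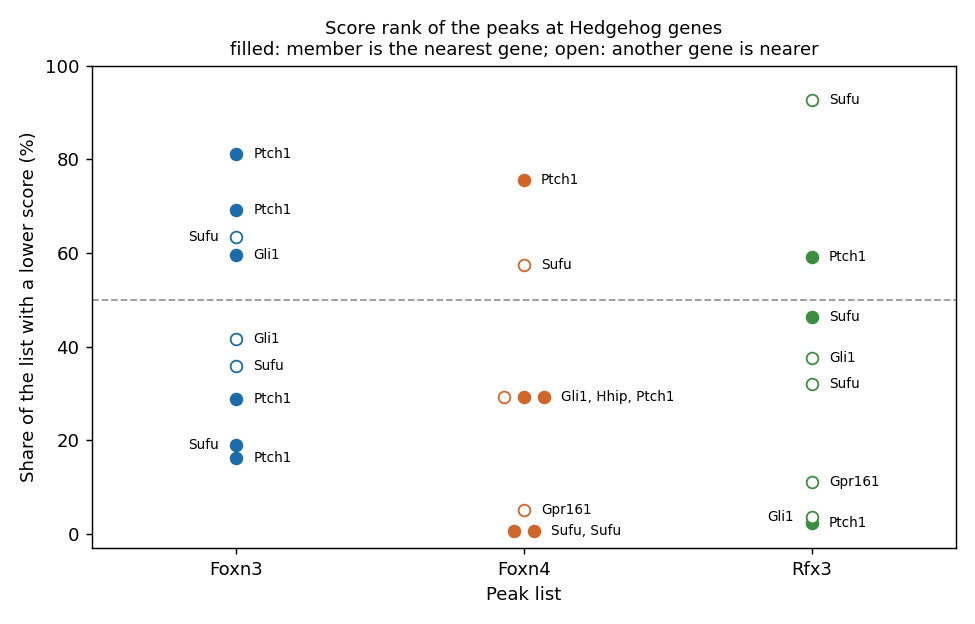
Share of the list with a lower score (in percent) for each of the 25 peaks, by peak list; filled points have the named member as the nearest protein-coding gene, open points have another gene nearer, and the dashed line marks 50%. Ptch1 holds the top Foxn3 and Foxn4 peaks, and the top Rfx3 peak is the one at Actr1a in the Sufu window.

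At gene starts, taken as a peak midpoint within 1 kb, the Foxn3 list marked 3 members, Ptch1, Sufu and Gli1, against 9.34% of all genes. The Rfx3 list marked Ptch1 and Sufu, against 11.3%, and the Foxn4 list Ptch1 only, against 5.05%. Ptch1 was the 1 member with every factor at a start, against 3.22% of all genes. This depends on the distance and the start used: its 3 midpoints lie 646 to 697 bp from the listed start, so within 500 bp the Foxn4 list marked 0 members, and likewise 0 when only the ends of gene bodies were counted. For Gli1 and Shh both ends of the body were counted.

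A wider list of 45 other pathway genes was described in the same way; it was drawn up with earlier results of these data known. Of these, 11 had a Foxn3 peak at a start (24.4%, against 9.34% of all genes), 13 had Rfx3 (28.9%, against 11.3%) and 4 had Foxn4 (8.89%, against 5.05%). All 11 genes with Foxn3 also had Rfx3, against 86.0% of all genes with Foxn3 at a start. All 4 with Foxn4 had both others, against 63.7% of all genes with Foxn4 at a start. No factor was found at the starts of the other 32, among them the ligands Ihh and Dhh, the co-receptors Boc and Cdon, the ciliary kinesin Kif7 and the Evc and Evc2 pair. The Foxn3 peaks at these starts had a median rank above 70.8% of the list, against 53.8% for all Foxn3 peaks at gene starts. For Rfx3 the medians were 59.5% and 47.8%, and for Foxn4 29.3% and 44.1%. The first Foxn4 value rests on 4 peaks, and Foxn4 scores are heavily tied. The rank of 29.3% belongs to a score of 6.22, which 14.9% of the list shares. That of 44.1% belongs to the median score of the list, 7.11.

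**Figure D5:**
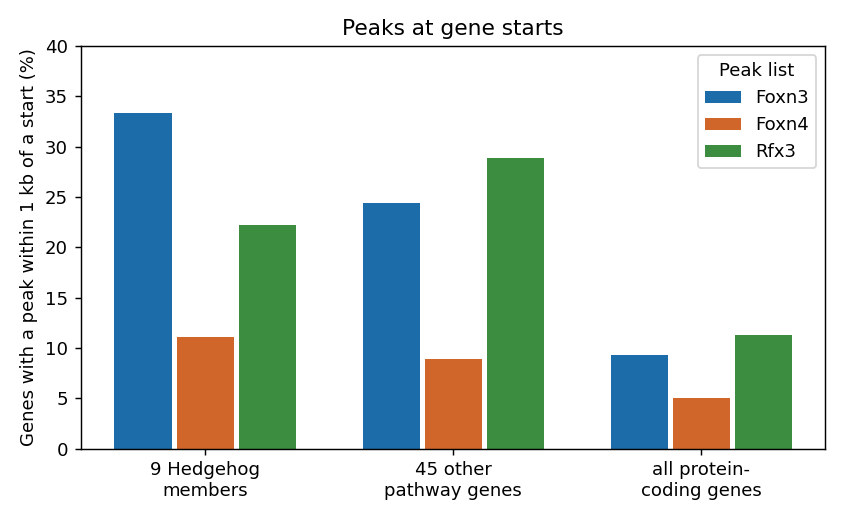
Share of genes (in percent, bars from 0) with a peak midpoint within 1 kb of a start, by peak list, for the 9 members, the 45 other pathway genes and all 21887 protein-coding genes. Among the other pathway genes Foxn3 and Rfx3 bars stand at 24.4% and 28.9%, against 9.34% and 11.3% of all genes.

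The bound genes of the wider list fell into several steps of the pathway. At the receptor, Gas1, a co-receptor for Shh, had all 3 factors, above 2.43% (Foxn3), 29.3% (Foxn4) and 30.3% (Rfx3) of their lists. In the complex at the base of the cilium through which Smo signals, Iqce had Foxn3 and Rfx3 above 70.8% and 82.5%, and Efcab7 had Rfx3 only, above 38.7%; the Efcab7 peak also lay within 1 kb of a start of Itgb3bp. Arrb2, an arrestin, had Foxn3 and Rfx3 above only 2.43% and 4.55%.

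Of the genes around cyclic AMP and protein kinase A, the catalytic subunit Prkaca, the regulatory subunit Prkar1a and Tulp3, the carrier that brings Gpr161 into cilia, had peaks at a start. The catalytic subunit Prkacb, the G protein gene Gnas, the cyclases Adcy5 and Adcy6, and Ankmy2 had none. Prkar1a had Foxn3 above 75.4% of its list and Rfx3 above 92.3%. Tulp3 had Foxn3 above 77.7% and Rfx3 above 74.1%. Prkaca had all 3 factors at low rank, above 10.8% (Foxn3), 29.3% (Foxn4) and 7.91% (Rfx3). Among the enzymes that act on Gli proteins, Btrc, the substrate adaptor of a ubiquitin ligase for Gli processing, had Foxn3 above 99.9%, Rfx3 above 97.7% and Foxn4 above 15.4%. Dyrk2 had Foxn3 and Rfx3 above 82.9% and 59.5%, with midpoints 969 and 980 bp from a start, and Csnk1d had Rfx3 only, above 52.1%. Stk36, a kinase related to the fly protein Fused, had Foxn3 above 98.8% and Rfx3 above 87.6%, at a start shared within 1 kb with Rnf25. Whether Stk36 acts on Gli proteins in the mouse was not tested.

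Short sites inside these peaks are shown for 3 of the strongest bound starts with listed sequence, to set beside Sufu. Capitals mark the X-box at Prkar1a (chr11:109650854-109650883, plus strand), the reverse complement of the X-box arm GTTGCC at Stk36 (chr1:74601454-74601483, plus strand) and the reverse complement of GACGC at Tulp3 (chr6:128355878-128355906, minus strand).
Prkar1a: cctttaagGTTGCCAAGGCAACcgccctgg
Stk36: acgccgtttctaGGCAACtgaagactctag
Tulp3: ctggaccaatggGCGTCggcgacagtgcg
All 3 sites lay within both a Foxn3 and an Rfx3 peak. The Prkar1a X-box begins at a listed start and contains that arm, the Stk36 match begins 11 bases after a listed start, and the Tulp3 match begins 43 bases before one. A different motif is shown for each gene, chosen after the matches were seen. The same motifs also occurred in listed promoter windows of the wider list that no peak overlapped. A window of Prkacb held the X-box with its arm GTTGCC. Windows of Disp1, Evc, Fbxw11 and Hhat held GTTGCC, and those of Ihh and Kif7, among others, held GACGC. The Gas1 window, overlapped by peaks of all 3 factors, held none of these motifs. Among all listed promoters that a Foxn3 peak overlapped, 7.53% held the X-box, 26.2% GTTGCC and 56.6% GACGC; for Rfx3 the shares were 8.82%, 27.3% and 53.8%. These are matches of letters, not measured binding sites.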

How the data were processed

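Positions came from 3 peak lists deposited by the authors, 1 per antibody, in mm10 coordinates per the file headers. Each holds a score per peak, deposited by the authors without a stated scaling. Cutadapt, Bowtie2, UMI-tools, bedtools and SEACR are named in the submitters' processing notes, with no roles, versions or thresholds. How libraries were combined and IgG was used is not given in the sources used here.

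BED starts were converted to count from 1. Gene bodies came from a RefSeq table of GRCm38.p6. Starts were those listed in a RefSeq promoter table (17492 of 21887 genes) plus the 5′ end of the body; for genes without an entry, both ends counted. Peaks overlapping by at least 1 bp were merged. Scores were ranked within a list. Background shares applied the same rule to all genes, peaks or promoters. Interval and motif functions were tested on simulated data (Python 3.11.15, pandas 2.3.3). All 45 wider-list symbols matched, 1 through a synonym.

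The members and lists were chosen with earlier results of these data known. The text names all 9 members, every peak in their windows, and wider-list genes bound at a start, except some that are counted but not reported here by name; the unbound ones named were picked afterwards.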

Additional observations from a re-analysis of the deposited data

How the results depend on the processing

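Each factor has a single list, so no replicate was left out, and depth per library is unknown. No paired analysis was possible because the peak lists carry no replicate numbers. Of 116 alternative values, 56 stayed close to the main one and 60 moved. Close means within 1.5 times for a count, inside the 95% Wilson interval for a background share, and within 1 SD of the members' peaks for a median rank.

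With 10 kb on either side, Foxn4 marked 3 members with 5 peaks and Rfx3 marked 2 with 4 peaks; 2 regions had all 3 factors, with 2 Foxn3 peaks meeting Foxn4 and 2 Foxn4 peaks meeting Rfx3. In gene bodies alone, and likewise where the member had to be the nearest gene, Foxn4 marked 3 members with 5 peaks and Rfx3 2 with 3 peaks, 9 regions remained, 2 had all 3 factors, and 3 Foxn3 peaks met Rfx3, 2 met Foxn4, and 2 Foxn4 peaks met Rfx3. No count moved with 100 kb on either side, with overlap of 50% of the shorter peak or with midpoints within 250 bp. With peaks at or above the median score, 4 Foxn3, 2 Foxn4 and 2 Rfx3 peaks remained, at 2 members each for Foxn4 and Rfx3; they formed 5 regions, 1 with all 3 factors, and 2 Foxn3 peaks met Rfx3, 1 met Foxn4 and 1 Foxn4 peak met Rfx3. In the top 25% of scores each list had 1 peak at 1 member, in 2 regions; 0 regions and 0 members had all 3 factors, 1 Foxn3 peak met Foxn4, and 0 Foxn3 or Foxn4 peaks met Rfx3.

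At gene starts, Foxn4 marked 0 members within 500 bp, 3 within 5 kb and 0 at either end of the body, an alternative chosen after seeing the data; Rfx3 marked 1 within 500 bp, 1 with the higher-scoring peaks and 1 at either end. In the wider list the higher-scoring peaks left 7 genes for Foxn3, 1 for Foxn4 and 8 for Rfx3. The longer forkhead core GTAAACA gave 0 matches. Over genes in the same 25% length classes as the members the background was 28.7% for Foxn3, 22.5% for Foxn4 and 35.7% for Rfx3.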
